A study of Mus musculus with 19 samples.

Results

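The Schlafen (Slfn) genes of the mouse lie in a cluster on chromosome 11 and encode proteins of which some limit translation or cell division. The 6 genes described here, Slfn1, Slfn2, Slfn4, Slfn5, Slfn8 and Slfn9, were taken by symbol, and all 6 had a row among the 50854 genes counted. The counts are from bulk RNA-seq of cells sorted from the bone marrow of female REP mice aged 8 to 12 weeks, a strain in which fluorescent reporters mark cells that express chemokine receptors, including CCR1 and CCR2. The 19 libraries fall into 5 groups. Monocytes positive for CCR2 (CCR2+ve) gave 4 resting and 4 inflamed libraries, those positive for both CCR1 and CCR2 (CCR1/2+ve) gave 4 resting and 3 inflamed ones, and 4 more are labelled inflamed CCR1. Per the study's methods, inflamed mice received IL-3, IL-6, GM-CSF and IFN-α for a week from an implanted osmotic pump, vehicle pumps held PBS, and monocytes were gated as CD11b+, Ly6C-high, Ly6G- and SiglecF-. Whether the resting mice carried a vehicle pump, and how the inflamed CCR1 cells were gated, is not given in the sources used here. No label gives a day of sorting, so that day and inflammation cannot be told apart, and nothing says that libraries of a group came from separate mice, so p-values measure only the spread between these libraries.

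Schlafen proteins share an N-terminal core that in some members can cut transfer and ribosomal RNA. Short members (Slfn1 and Slfn2) have little else, intermediate members (Slfn3 and Slfn4) add a further domain, and long members (Slfn5, Slfn8, Slfn9 and Slfn14) end in a helicase-like domain. Many are switched on by type I interferon, the cytokine family that includes IFN-α, through the receptor chains Ifnar1 and Ifnar2 and a transcription factor complex that holds Stat2 and Irf9. Slfn2 is known for keeping T cells and monocytes quiescent and alive, and Slfn4 for its rise in myeloid cells under interferon.

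In the GRCm38 annotation of GENCODE M21 the cluster spanned 82951349 to 83286726 of chromosome 11. On the forward strand were Slfn5 (82951349 to 82964840), Slfn2 (83065112 to 83070678), Slfn1 (83116849 to 83122670), Slfn4 (83175186 to 83190216) and Slfn3 (83191330 to 83215154). The reverse strand held Slfn9 (82978390 to 82991830), Slfn8 (83002158 to 83020810), the pseudogene Slfn10-ps and Slfn14. Coding sequences were of 337 codons for Slfn1, 378 for Slfn2, 602 for Slfn4, 884 for Slfn5 and 910 each for Slfn8 and Slfn9. Slfn8 and Slfn9 were 92.7% identical over 2730 coding bases and Slfn4 and Slfn3 92.3%, against 71.3% for Slfn1 and Slfn2. Counting kept reads that align to 1 place, and the share of a gene's exonic 50-base stretches that also occurred in another gene was 14.6% for Slfn8, 11.5% for Slfn9, 10.8% for Slfn4, 4.27% for Slfn2, 3.37% for Slfn5 and 0.606% for Slfn1. Levels of Slfn8, Slfn9 and Slfn4 are therefore less certain than those of Slfn1. The antisense gene Slfn5os overlapped 8.84% of the Slfn5 exonic bases, and the strand of the counts is not stated.

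The promoters of Slfn8 and Slfn9 are shown because both genes, on the reverse strand and nearly identical in their coding part, held the same motif in their promoters. RefSeq promoters (GRCm38.p6, 250 bases before to 50 after a start) were found for all 6 members and for Slfn3, Slfn14 and Slfnl1. They were searched on both strands for GAAA followed by any 2 bases and a further GAAA, the core of the interferon-stimulated response element that the complex with Stat2 and Irf9 binds. The stretches below run 5′ to 3′ along the gene's strand up to the base before the start, with the match in capitals (read on the opposite strand).
Slfn8, chr11:83020811-83020898: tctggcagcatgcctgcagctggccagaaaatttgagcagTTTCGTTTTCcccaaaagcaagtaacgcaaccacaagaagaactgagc
Slfn9, chr11:82991831-82991915: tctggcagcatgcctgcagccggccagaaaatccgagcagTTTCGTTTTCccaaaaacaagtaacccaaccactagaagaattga
The match lay 48 to 39 bases before the start in Slfn8 and 45 to 36 bases before it in Slfn9. RefSeq lists 2 promoters for Slfn8, and from its other start the same match lay 136 to 127 bases upstream. The Slfn5 promoter held a match, GAAAAAGAAA, 155 to 146 bases before its RefSeq start, inside an exon of a non-coding Slfn5 transcript of GENCODE M21. No match was found in the windows of Slfn1, Slfn2 and Slfn4, nor in those of Slfn3, Slfn14 and Slfnl1. Of all 32851 promoters, 3.44% held the motif. The gamma-activated site TTCNNNGAA, in 8.3% of all promoters, was in none of these Schlafen windows, so the 2 motifs did not overlap there.

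Libraries held 22268658 to 30502009 reads on genes (median 23706580). Levels are a gene's reads per 1000000 reads of the library (CPM) after TMM scaling over the 19 libraries, and RPKM (CPM per kilobase of exon) where genes are compared with each other. Receptor RNA was looked at as a check of the sort. In the 4 monocyte groups Ccr2 averaged 633 to 1251 CPM and Ccr1 75.1 to 310.0 CPM. At rest Ccr1 was higher in CCR1/2+ve than in CCR2+ve cells (112 against 75.1 CPM, edgeR adjusted p = 0.00154). Ccr2 was lower there (633 against 1218 CPM, edgeR adjusted p = 0.000636). After inflammation neither passed the test, with Ccr1 at 310 against 209 CPM and overlap of libraries (edgeR adjusted p = 0.574). Receptor RNA thus passed the test between the populations at rest only. For Ccr1 the log2 fold change was 0.65 ± 0.11 (SE) at rest and 0.55 ± 0.25 after inflammation. The difference between these 2 values did not pass (-0.10 ± 0.26, edgeR adjusted p = 0.920). For Ccr2 that difference passed (0.83 ± 0.18, edgeR adjusted p = 0.0478). The libraries labelled inflamed CCR1 stood apart from the label monocyte. Their Ccr1 was the lowest of the 5 groups (38.0 ± 4.6 CPM, SD, n = 4) and their Ccr2 was 5.82 ± 2.56 CPM. Only 7 of 15 monocyte markers averaged 10 CPM or more there against 14 in each other group, with a summed level of 7842 to 12477 CPM against 33575 to 65659. Summed mature neutrophil markers reached 110295 to 160705 CPM (13 of 16 at 10 CPM or more) against 1703 to 4427 elsewhere. T and NK cell markers summed to 1361 to 1708 CPM there, of which Nkg7 averaged 1562 CPM, and to 7.48 to 81.4 CPM elsewhere. B cell markers summed to 20.7 to 43.2 CPM over all libraries. Macrophage markers summed to 459 to 550 CPM in the libraries labelled inflamed CCR1 and to 234.5 to 829.5 CPM elsewhere. In the former, 2 of the 12 averaged 10 CPM or more. Against inflamed CCR2+ve cells 8 were lower there and 1 higher, beside 25.4% of all genes lower and 22.7% higher. These libraries are therefore described by their label, after the monocytes. The edgeR and DESeq2 tests among the 4 monocyte groups use them only through the low-count filter and in the fit of all libraries. CPM levels, overlaps of libraries and permutation tests also depend on them, through the TMM scaling over the 19 libraries.

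Slfn2 and Slfn1 together made up most of the Schlafen RNA per length in every monocyte library. In the libraries labelled inflamed CCR1, Slfn2 alone did (82.6% on average), with Slfn1 at 3.14%. The summed RPKM of the 6 genes was 939 ± 145 (SD, n = 4) in resting CCR2+ve, 651 ± 86.4 (n = 4) in resting CCR1/2+ve, 980 ± 93.5 (n = 4) in inflamed CCR2+ve and 1163 ± 51.2 (n = 3) in inflamed CCR1/2+ve monocytes. Slfn2 held 52.6% ± 4.63 of that sum in resting CCR2+ve and 62.5% ± 4.04 in resting CCR1/2+ve monocytes. After inflammation its share was lower, at 37.9% ± 3.48 for CCR2+ve cells and 41.1% ± 1.44 for CCR1/2+ve cells. Slfn1 took the lead there, at 49.3% ± 2.89 and 47.9% ± 1.34, from 37.7% ± 3.94 and 29.4% ± 2.97 at rest. Next in all 4 monocyte groups came Slfn8 (24.3 to 59.5 RPKM on average), followed by Slfn5 (12.1 to 35.1 RPKM). Slfn9 (9.41 to 15.3 RPKM) and Slfn4 (6.55 to 24.3 RPKM) were the lowest, Slfn9 above Slfn4 at rest and below it after inflammation.

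**Figure D1:**
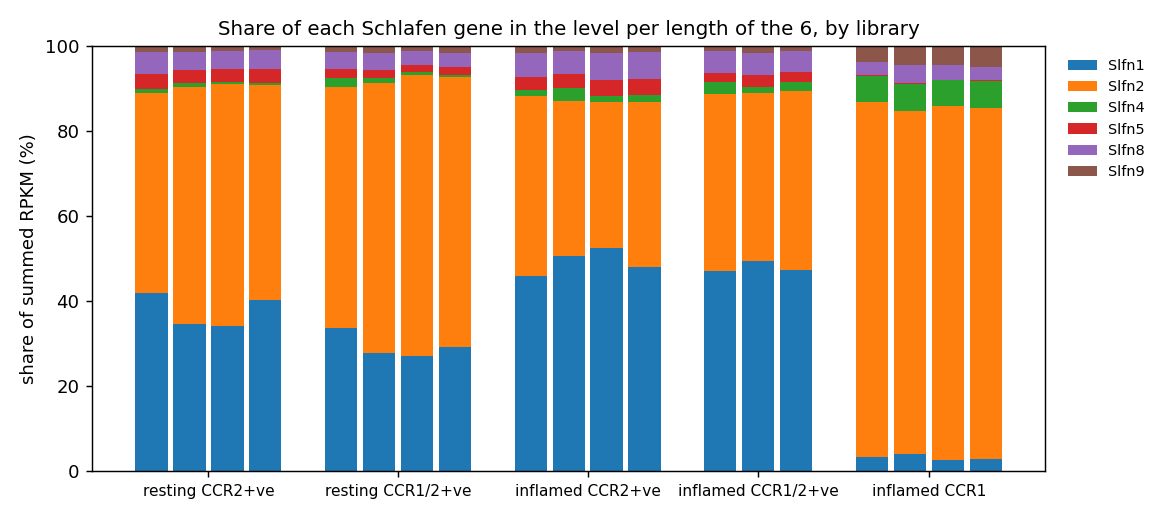
Share of each of the 6 Schlafen genes in their summed RPKM (percent), 1 stacked bar per library, grouped by the 5 groups. Slfn2 is the widest band at rest, Slfn1 is wider in each of the 7 inflamed monocyte libraries, and Slfn2 alone makes up 80.8% to 83.6% of the bars labelled inflamed CCR1.

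In resting monocytes, Slfn5, Slfn1 and Slfn8 were lower in CCR1/2+ve than in CCR2+ve cells, and Slfn2, Slfn9 and Slfn4 did not pass the test. That test did not pair libraries by replicate number, although the numbers paired the resting libraries. With the number as a block, Slfn2 passed too. A gene is said to have passed where its p from the quasi-likelihood test of edgeR, adjusted by Benjamini-Hochberg over all 18652 genes that entered the test, was below 0.05. By that rule 8.44% of all genes were higher and 8.44% lower in CCR1/2+ve cells, and of the 6 Schlafen genes 0 were higher and 3 lower (median log2 fold change -0.48 over the 6, and 0.03 over all genes). In bulk libraries, fewer cells that express a gene and less of its RNA per cell cannot be told apart.

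Slfn5, a long nuclear member, read 235, 157, 159 and 232 CPM in the resting CCR2+ve libraries (replicates 1 to 4) and 101, 63.0, 63.8 and 77.2 CPM in the resting CCR1/2+ve libraries. Every CCR1/2+ve library lay below every CCR2+ve library. The log2 fold change was -1.28 ± 0.18 (SE, edgeR adjusted p = 0.000578), and the exact two-sided permutation p was 0.0286, the smallest that 4 against 4 allows. This permutation treats the libraries as unpaired. Shuffling within pairs of the same replicate number allows fewer arrangements, so its smallest p is larger, and it was not run. Slfn1, the shortest member, read 799.7, 522, 523 and 823 CPM in CCR2+ve and 459, 284, 307 and 387 CPM in CCR1/2+ve libraries, again without overlap. Its log2 fold change was -0.82 ± 0.18 (adjusted p = 0.0100), and with no filter on low counts the adjusted p was 0.0575, which ends the call. Slfn8, a long member, read 215, 145, 138 and 199.7 CPM against 123, 91.6, 83.2 and 100.2 CPM. Those groups did not overlap either, and the log2 fold change was -0.73 ± 0.16 (adjusted p = 0.00684).

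All members except Slfn4 shared an order of replicates. In resting CCR2+ve monocytes replicates 1 and 4 were above replicates 2 and 3 for Slfn1, Slfn5, Slfn8, Slfn2 and Slfn9. The same held in resting CCR1/2+ve monocytes, and how common this order was over all genes was not counted. Between libraries of the same replicate number, the CCR1/2+ve level was 0.332 to 0.432 of the CCR2+ve level for Slfn5, 0.470 to 0.586 of it for Slfn1 and 0.502 to 0.632 of it for Slfn8.

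Slfn2 was closer between the populations. It read 801, 748, 783 and 925 CPM in resting CCR2+ve and 691, 579, 673 and 752 CPM in resting CCR1/2+ve libraries, with 1 CCR1/2+ve library just above the lowest CCR2+ve library. The log2 fold change was -0.20 ± 0.09 (adjusted p = 0.155). With the replicate number as a block, it was -0.20 ± 0.05 and passed (adjusted p = 0.00505), its level in CCR1/2+ve being 0.774 to 0.863 of that in CCR2+ve cells of the same number. Slfn9, the near-copy of Slfn8, read 60.6 to 83.6 CPM in CCR2+ve and 44.0 to 68.7 CPM in CCR1/2+ve libraries, which overlap (log2 fold change -0.22 ± 0.14, adjusted p = 0.308). With the GC correction and the replicate block together Slfn9 passed, at -0.27 ± 0.086 (adjusted p = 0.0276). Slfn4, the intermediate member, read 38.0, 29.5, 16.6 and 19.7 CPM in CCR2+ve and 60.2, 27.9, 16.3 and 15 CPM in CCR1/2+ve libraries. It was highest in replicate 1 of both populations, and its log2 fold change of 0.28 ± 0.50 (adjusted p = 0.772) was -0.32 without replicate 1 of the CCR1/2+ve cells.

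Other lists moved between these resting populations too. The 15 monocyte markers summed to 33575 to 47047 CPM in CCR1/2+ve and 50172 to 58144 CPM in CCR2+ve libraries, with 14 at 10 CPM or more in both and none at 0. For the 13 dendritic cell markers the sums were 240.5 to 564 and 1005 to 2699 CPM, with 5 and 7 at 10 CPM or more and none at 0. The 25 proliferation genes summed to 5663 to 7203 CPM in CCR1/2+ve and 3201 to 4100 CPM in CCR2+ve libraries. All 24 that were tested were higher in CCR1/2+ve cells, beside 8.44% of all genes. For the 16 mature neutrophil markers the sums were 3361 to 4238 and 1703 to 2470 CPM, with 9 and 8 at 10 CPM or more and Stfa2l1 at 0 in both. The part of these in the Schlafen differences was not tested.

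**Figure D2:**
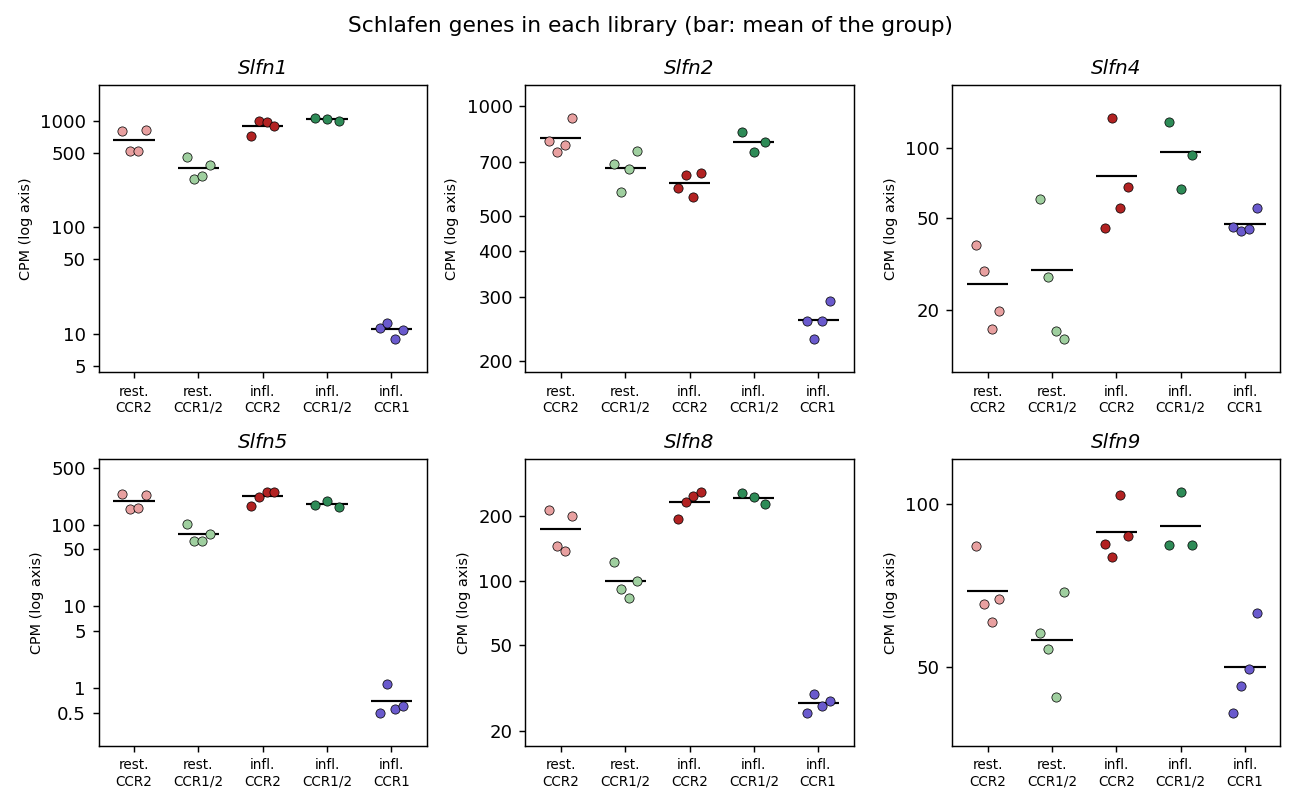
Level of each Schlafen gene (CPM, log axis, 1 panel per gene) in each of the 19 libraries, with points for libraries in replicate order and a line for the group mean. Resting CCR1/2+ve points of Slfn1, Slfn5 and Slfn8 sit below all other monocyte points, and the libraries labelled inflamed CCR1 fall to 0.50 to 1.13 CPM for Slfn5.

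The cytokine infusion was followed by a rise of 5 of the 6 Schlafen genes in CCR1/2+ve monocytes. Slfn1, Slfn4, Slfn8, Slfn5 and Slfn9 were higher in inflamed than in resting CCR1/2+ve cells, each without overlap of the TMM-scaled levels, and Slfn2 did not pass. The share of all genes without overlap was not counted. Over all genes tested 20.6% were higher and 25.4% lower. The median log2 fold change was 1.13 over the 6 genes and -0.25 over all genes (-0.17 with RLE factors and -0.35 with total counts). The groups hold 3 and 4 libraries, so the smallest exact two-sided permutation p is 0.0571, which all 5 genes reached on the TMM-scaled levels.

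Slfn1 went from 284 to 459 CPM at rest to 1069.6, 1045 and 998 CPM in the inflamed libraries (replicates 2, 3 and 4), a log2 fold change of 1.40 ± 0.15 (adjusted p = 1.87e-05), or 2.64-fold. Slfn8 went from 83.2 to 123 CPM to 257, 246 and 227 CPM (1.15 ± 0.13, adjusted p = 2.54e-05). For Slfn5 the inflamed libraries read 177, 196 and 164 CPM against 63.0 to 101 CPM at rest (1.10 ± 0.17, adjusted p = 0.000253). The lowest inflamed library of each of these 3 genes thus lay above the highest resting one. Slfn9 rose less, from 44.0 to 68.7 CPM to 83.9, 105 and 83.9 CPM (0.57 ± 0.15, adjusted p = 0.00792). Without replicate 3 of the inflamed CCR1/2+ve cells, its highest library, the adjusted p of Slfn9 was 0.0522.

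Slfn4 had the highest estimate and the widest error. It read 129, 66.3 and 93.5 CPM in the inflamed CCR1/2+ve libraries against 60.2, 27.9, 16.3 and 15 CPM at rest, and the log2 fold change was 1.53 ± 0.48 (adjusted p = 0.0292). The highest resting library, replicate 1 (1835 reads), was just below the lowest inflamed one, replicate 3 (1326 reads), an order that depends on the scaling. Without resting replicate 1 the log2 fold change was 2.21 (adjusted p = 0.00142). The call was lost, with adjusted p of 0.0571 to 0.137, without resting replicate 2, 3 or 4 or inflamed replicate 2 or 4, and with no filter on low counts (0.132). Slfn2 read 579 to 752 CPM at rest and 745 to 849 CPM after inflammation (0.11 ± 0.09, adjusted p = 0.323), and the direction depended on the scaling, since the log2 ratio of the means was 0.24 at its highest and -0.08 at its lowest over TMM, RLE and total counts.

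In CCR2+ve monocytes only Slfn4 rose and Slfn2 fell after inflammation, and the other 4 genes did not pass, among 21.9% of all genes higher and 25.9% lower. The median log2 fold change was 0.32 over the 6 genes and -0.10 over all genes. Slfn4 read 45.2, 134.5, 55.1 and 67.9 CPM in the inflamed against 16.6 to 38.0 CPM in the resting CCR2+ve libraries. All 4 inflamed libraries were above the resting ones, with replicate 2 far above the rest (log2 fold change 1.46 ± 0.37, adjusted p = 0.00956). Slfn2 read 596, 644, 564 and 656 CPM after inflammation and 748 to 925 CPM at rest, without overlap (-0.47 ± 0.10, adjusted p = 0.000851).

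Slfn1 read 725, 1001, 972 and 909.9 CPM in the inflamed CCR2+ve libraries, of which replicate 1 fell inside the resting range of 522 to 823 CPM (0.37 ± 0.16, adjusted p = 0.0697). Slfn8 read 194, 233, 249.6 and 259.7 CPM against 138 to 215 CPM (0.36 ± 0.15, adjusted p = 0.0636). For Slfn9 the values were 84.5, 80.0, 104 and 87.2 CPM against 60.6 to 83.6 CPM (0.29 ± 0.13, adjusted p = 0.0744). These 3 genes sat near the threshold. DESeq2 and RLE factors each called Slfn8 and Slfn9 as well (4 of 6 in all), and a fit of all libraries or a GC correction called Slfn1, Slfn8 and Slfn9 (5 of 6). The count was also 5 without replicate 1 of the resting cells, and 4 without resting replicate 4 or without inflamed replicate 1. Slfn5 read 168, 218, 251 and 253 CPM against 157 to 235 CPM (0.12 ± 0.16, adjusted p = 0.597), and no alternative called it.

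Markers of other cells moved with the infusion. The 10 erythroid markers, 9 of them with a row, summed to 95.1 to 298 CPM in resting CCR2+ve and 58.4 to 181 CPM in resting CCR1/2+ve libraries, with none at 0, and to 1.55 to 4.23 and 1.79 to 3.64 CPM after inflammation. The 13 dendritic cell markers summed to 1484 to 5030 CPM in inflamed CCR2+ve and 1056 to 1300 CPM in inflamed CCR1/2+ve libraries. Cd74, which averaged 2575 CPM in inflamed CCR2+ve cells, made up most of that sum, and gene by gene 0 of the 13 were higher and 8 lower in CCR2+ve cells (median log2 fold change -1.61) and 3 higher and 5 lower in CCR1/2+ve cells (median -0.77). The 12 macrophage markers summed to 304 to 430 CPM at rest and 598.5 to 829.5 CPM after inflammation in CCR2+ve cells (6 higher and 0 lower), and to 234.5 to 324 and 658 to 681 CPM in CCR1/2+ve cells (5 higher and 6 lower). Of all genes 21.9% were higher and 25.9% lower in CCR2+ve cells, and 20.6% and 25.4% in CCR1/2+ve cells. For the 15 monocyte markers the inflamed sums were 53541 to 65659 and 56754 to 61772 CPM. The part of these in the Schlafen changes was not tested.

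**Figure D3:**
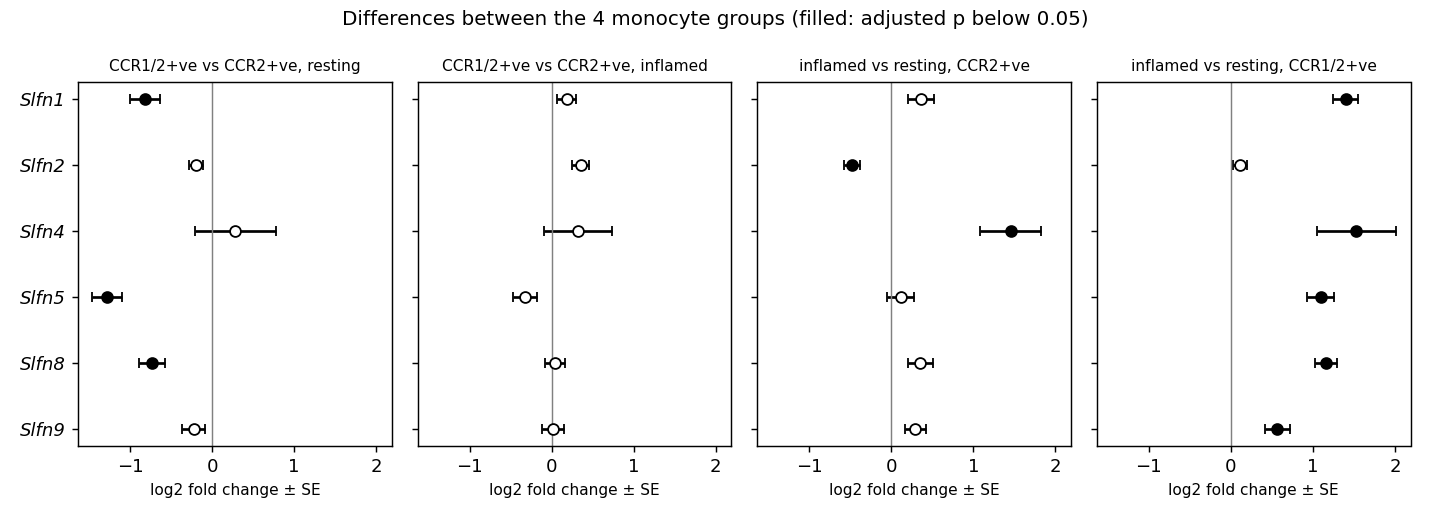
Log2 fold change of each Schlafen gene with its SE in the 4 comparisons among monocyte groups (4 libraries a group, 3 for inflamed CCR1/2+ve), filled where the adjusted p is below 0.05. Resting CCR1/2+ve cells are lower for Slfn1, Slfn5 and Slfn8, no gene is filled between the inflamed populations, and 5 are filled to the right for CCR1/2+ve cells after inflammation.

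Between the inflamed populations 0 of 6 Schlafen genes passed, where 0.123% of all genes were higher and 0.0643% lower in CCR1/2+ve cells. At an unadjusted p below 0.05 there were 2 of 6, Slfn2 and Slfn5, and the share of all genes at that unadjusted p was not counted. DESeq2 called 0 of the 6, and 265 genes in all. Slfn2 read 849, 745 and 794 CPM in inflamed CCR1/2+ve libraries, all above the 564 to 656 CPM of inflamed CCR2+ve libraries (0.35 ± 0.10, adjusted p = 0.262). Slfn5 was on the other side, at 164 to 196 CPM against 168 to 253 CPM (-0.33 ± 0.15, adjusted p = 0.536). Slfn8 (0.04 ± 0.12) and Slfn9 (0.02 ± 0.14) differed by less than their SE, and the sign of both changed with the GC correction, that of Slfn9 also with the scaling. The 16 mature neutrophil markers summed to 3830 to 4427 CPM in inflamed CCR1/2+ve and 2231 to 2438 CPM in inflamed CCR2+ve libraries, with 11 at 10 CPM or more in both and none at 0, and their part was not tested.

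Whether inflammation moved the genes differently in the 2 populations was tested as an interaction over the 15 monocyte libraries. A positive value means a larger log2 change in CCR1/2+ve cells. It was 0.99 ± 0.24 for Slfn1 (adjusted p = 0.0731), 0.94 ± 0.26 for Slfn5 (adjusted p = 0.114), 0.76 ± 0.22 for Slfn8 (adjusted p = 0.140) and 0.54 ± 0.13 for Slfn2 (adjusted p = 0.0725). Slfn9 (0.23 ± 0.21, adjusted p = 0.687) and Slfn4 (0.04 ± 0.69) were nearer to 0. None of the 6 passed in edgeR, where 0.397% of all genes did. The same 4 genes were at an unadjusted p below 0.05 and passed in DESeq2 (adjusted p = 0.00240 to 0.0210). DESeq2 called 534 genes in all, and the share of all genes at that unadjusted p was not counted. Of the 18652 genes, 74 passed in edgeR, and 0 without inflamed CCR1/2+ve replicate 3 and 253 without inflamed CCR2+ve replicate 4. With the replicate block Slfn2 passed in edgeR (0.55 ± 0.12, adjusted p = 0.0306), as it did with the GC correction added (0.0291). With single libraries left out, Slfn1 passed without resting CCR1/2+ve replicate 1 (adjusted p = 0.0388) or resting CCR2+ve replicate 2 (0.0369), Slfn5 without the former (0.0454), and Slfn2 without inflamed CCR2+ve replicate 4 (0.0338).

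The order of the groups thus differed by gene. For Slfn1 and Slfn8 resting CCR1/2+ve monocytes were lowest of the monocytes, then resting CCR2+ve, inflamed CCR2+ve and inflamed CCR1/2+ve cells, and only the first step was free of overlap between libraries. For Slfn5 the order was resting CCR1/2+ve, inflamed CCR1/2+ve, resting CCR2+ve and inflamed CCR2+ve, again with a gap only at the first step. For Slfn9 and Slfn4 neighbouring groups overlapped at each step. Slfn2 ran from inflamed CCR2+ve (615 CPM) through resting CCR1/2+ve (674 CPM) and inflamed CCR1/2+ve (796 CPM) to resting CCR2+ve monocytes (814 CPM), with overlap between all neighbours.

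In the 4 libraries labelled inflamed CCR1 the summed Schlafen RPKM was 189 ± 17.3 (SD, n = 4), the lowest of the 5 groups. Against inflamed CCR2+ve monocytes 5 of 6 genes were lower and 0 higher (25.4% of all genes lower, 22.7% higher). Against inflamed CCR1/2+ve monocytes all 6 were lower (23% of all genes lower, 20.2% higher). The 2 comparisons share the 4 libraries labelled inflamed CCR1, and the marker levels given above moved with them. Their part was not tested.

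Slfn5 was nearly absent there, at 0.50, 1.13, 0.555 and 0.612 CPM, which is 11, 25, 12 and 13 reads. Its log2 fold change was -8.29 ± 0.24 against CCR2+ve and -7.99 ± 0.22 against CCR1/2+ve cells (adjusted p = 9.35e-14 and 1.04e-11). Slfn1 read 11.4, 12.5, 8.92 and 10.9 CPM, with -6.36 ± 0.16 and -6.56 ± 0.14 (adjusted p = 8.21e-15 and 8.25e-13). So Slfn1 and Slfn5, a short and a long member, were both low in these libraries, and Slfn2, the other short member, was less so. It read 258, 230.0, 257 and 292 CPM, with -1.24 ± 0.10 and -1.62 ± 0.10 (adjusted p = 2.19e-08 and 9.71e-09), and made up 82.6% ± 1.27 of the summed RPKM.

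Slfn8 and Slfn9 parted in these libraries despite their near-identical coding sequences. Slfn8 read 24.3, 29.8, 26.1 and 27.4 CPM, with log2 fold changes of -3.12 ± 0.13 and -3.18 ± 0.11 (adjusted p = 2.69e-12 and 4.12e-11). Slfn9 read 41.2, 46.1, 49.6 and 63.0 CPM, with -0.83 ± 0.14 and -0.87 ± 0.15 (adjusted p = 7.25e-05 and 0.000264), and its RPKM was above that of Slfn8 in each of these 4 libraries and below it in all 15 monocyte libraries. Slfn4 read 45.6, 43.8, 44.8 and 54.9 CPM, of which 2 lay below the lowest inflamed CCR2+ve library (45.2 CPM), with -0.67 ± 0.30 (adjusted p = 0.0949) and -1.02 ± 0.18 against CCR1/2+ve cells (adjusted p = 0.000666). With all libraries in one fit the last adjusted p was 0.0741. Without inflamed CCR2+ve replicate 2 the first log2 fold change was -0.25, and without replicate 1 it was -0.85 and passed (adjusted p = 0.0184), as it did in DESeq2 (0.0356). Beside the resting monocytes, without a test, the Slfn4 mean of 47.3 CPM was above those of CCR2+ve (26 CPM) and CCR1/2+ve cells (29.8 CPM), with overlap of libraries for the latter, and the Slfn9 libraries (mean 50.0 CPM) overlapped those of resting CCR1/2+ve cells (56.1 CPM).

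Other genes of the cluster moved in the same direction as Slfn4. Slfn3 averaged 12.8 ± 1.33 and 12.4 ± 1.98 CPM in resting CCR2+ve and CCR1/2+ve monocytes (n = 4 each), 35.1 ± 6.56 and 46.2 ± 1.56 CPM in the inflamed ones (n = 4 and 3) and 14.8 ± 2.66 CPM (n = 4) in the libraries labelled inflamed CCR1. Its rise was 1.39 ± 0.15 in CCR2+ve and 1.76 ± 0.15 in CCR1/2+ve cells on the log2 scale (adjusted p = 2.44e-06 and 2.27e-06). The pseudogene Slfn10-ps rose from 3.20 ± 0.561 to 8.31 ± 2.79 CPM and from 2.31 ± 0.858 to 7.90 ± 1.12 CPM (1.29 ± 0.24 and 1.63 ± 0.30, adjusted p = 0.000353 and 0.000782). Slfn3 and Slfn10-ps share sequence with Slfn4 and with Slfn8 and Slfn9, so reads between these copies are uncertain. Slfn14, and Slfnl1 on chromosome 4, had 0 to 2 reads in every library and were not tested.

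**Figure D4:**
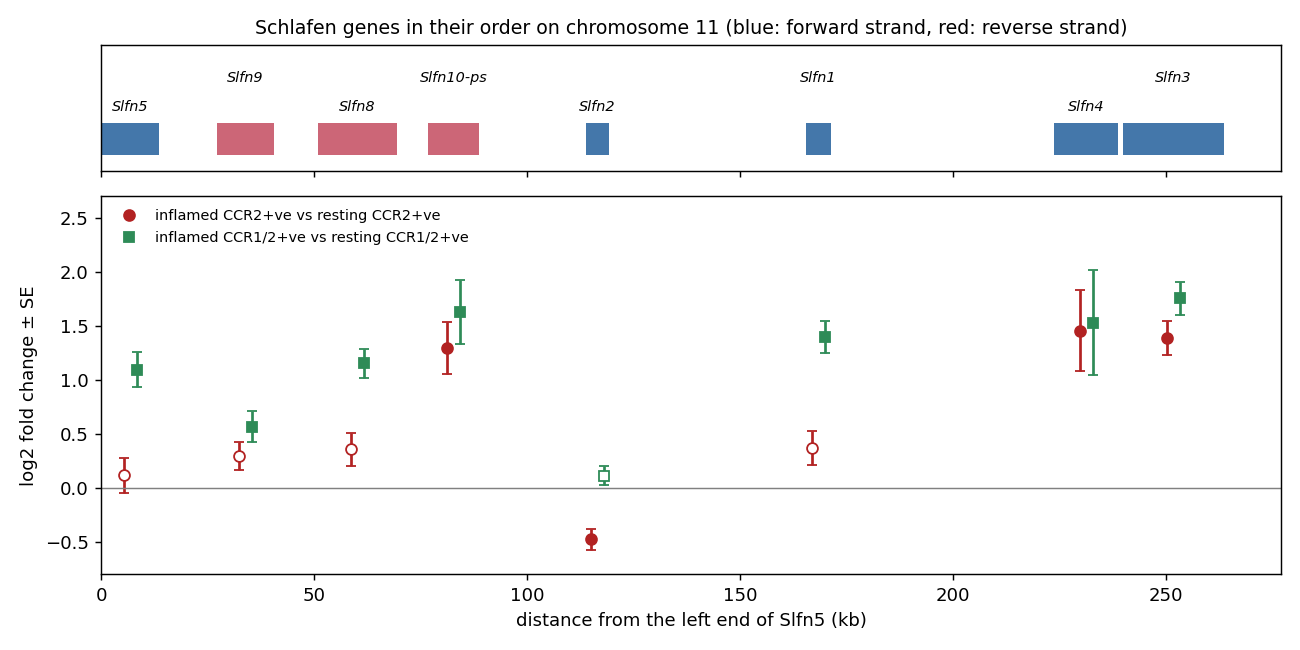
The Schlafen cluster of chromosome 11 to scale (kb from the left end of Slfn5, Slfn14 not drawn), with the log2 fold change of each gene after inflammation and its SE in CCR2+ve (circles) and CCR1/2+ve (squares) monocytes, filled where the adjusted p is below 0.05. Slfn2, in the middle of the cluster, is the only gene with a filled point below 0, and Slfn4 and its neighbour Slfn3 are filled in both populations.

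The nearest 5 protein-coding genes on each side of the cluster did not follow one direction. Of the 8 that were tested, 2 were higher and 3 lower after inflammation in CCR1/2+ve cells, beside 20.6% and 25.4% of all genes. In CCR2+ve cells 1 was higher and 3 were lower, beside 21.9% and 25.9% of all genes. Ap2b1, a subunit of the clathrin adaptor AP-2, rose by a log2 fold change of 1.58 ± 0.11 in CCR2+ve and 1.56 ± 0.12 in CCR1/2+ve cells (adjusted p = 1.65e-08 and 6.86e-07). Rffl, a ubiquitin ligase gene on the other side, had -2.26 ± 0.13 and -2.11 ± 0.12 (adjusted p = 1.69e-09 and 5.27e-08), and 1700020L24Rik was lower in both. Rad51d and Nle1 were the remaining genes past the test in CCR1/2+ve cells, with 0.59 and -0.96, and Gas2l2 in CCR2+ve cells, where it was listed at 0 in every inflamed library.

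Other interferon-responsive genes were lower in resting CCR1/2+ve than in resting CCR2+ve monocytes, as Slfn1, Slfn5 and Slfn8 were. Of 31 type I interferon antiviral genes tested, 21 were lower and 0 higher (median log2 fold change -0.91), beside 8.44% of all genes lower and 8.44% higher. The counts were 11 of 17 for interferon-inducible GTPases (median -0.91), 8 of 11 for the PYHIN genes, a family of interferon-inducible DNA sensors (median -0.92), and 9 of 15 for interferon effectors that degrade RNA or limit translation (median -0.69), with 0 higher in each. Oasl2, a relative of the oligoadenylate synthetases, averaged 129 ± 44.9 against 316 ± 93.6 CPM (-1.21 ± 0.29, adjusted p = 0.0198). Ifi204, a PYHIN gene, averaged 184 ± 32.3 against 343 ± 70.0 CPM (-0.82 ± 0.15, adjusted p = 0.00258), and Igtp, a GTPase, 56.2 ± 6.60 against 109.6 ± 19.4 CPM (-0.89 ± 0.13, adjusted p = 0.000510).

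After inflammation these lists rose in more of their genes in CCR1/2+ve than in CCR2+ve cells, without a test of that difference as a list. Among all genes 20.6% were higher and 25.4% lower in CCR1/2+ve cells, and 21.9% and 25.9% in CCR2+ve cells. Antiviral genes were higher in 23 and lower in 1 of 31 in CCR1/2+ve cells (median 1.26) and higher in 13 and lower in 3 in CCR2+ve cells (median 0.37). The lower genes were Cmpk2 in both, with Rsad2 and Trim30a in CCR2+ve cells. GTPases were higher in 15 of 17 (median 2.16) and 11 of 17 (median 1.05), and RNA-limiting effectors in 13 of 15 (median 1.67) and 9 of 15 (median 1.15), with 0 lower. PYHIN genes were higher in 8 of 11 in CCR1/2+ve cells (median 0.96) but in CCR2+ve cells only Ifi209 passed (0.48, median of the 11 0.14). In the interaction test 1 antiviral gene passed, Isg20, an exonuclease of single-stranded RNA (1.44, adjusted p = 0.0273), which is also on the list of RNA-limiting effectors. DESeq2 called 7 of the 31 antiviral genes there, and 15 were at an unadjusted p below 0.05 in edgeR. Over the 80 genes of the interferon lists, receptors and signalling included, the counts were 13 and 31. DESeq2 called 534 genes in all, and the share of all genes at that unadjusted p was not counted.

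Genes of the interferon receptor and its signalling moved in both directions. Of 17 tested, 9 were higher and 6 lower after inflammation in CCR1/2+ve cells, and 5 higher and 7 lower in CCR2+ve cells. The shares of all genes higher and lower were 20.6% and 25.4% in CCR1/2+ve cells, and 21.9% and 25.9% in CCR2+ve cells. The receptor chain Ifnar2 averaged 137 ± 9.26 and 111 ± 10.3 CPM in resting CCR2+ve and CCR1/2+ve cells and 34.7 ± 6.36 and 35.6 ± 3.60 CPM in the inflamed ones (-2.05 ± 0.14 and -1.76 ± 0.12, adjusted p = 1.01e-08 and 2.44e-07). Ifnar1 fell by 0.84 on the log2 scale in CCR2+ve cells (adjusted p = 0.000212) and did not pass in CCR1/2+ve cells (-0.60 ± 0.32, adjusted p = 0.159). Stat2 rose in both (1.35 ± 0.18 and 1.68 ± 0.36, adjusted p = 1.67e-05 and 0.00434), as did Irf7 (0.79 ± 0.19 and 1.70 ± 0.24, adjusted p = 0.00292 and 0.000301).

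Between the inflamed populations 0 of the 80 genes on these 5 lists passed in edgeR and 0 in DESeq2, with 1, Isg20, at an unadjusted p below 0.05. In the libraries labelled inflamed CCR1, all 11 PYHIN genes were lower than in inflamed CCR2+ve and inflamed CCR1/2+ve monocytes (median -7.55 and -7.41), as were 28 and 30 of 31 antiviral genes, 14 and 14 of 17 GTPases, 13 and 15 of 15 RNA-limiting effectors and 14 and 13 of 17 receptor and signalling genes. Of all genes tested, 25.4% and 23% were lower there. Proliferation genes were higher there, in 23 and 21 of 24 (median 1.19 and 0.77), beside 22.7% and 20.2% of all genes. After inflammation of the monocytes, 13 of 24 proliferation genes were higher and 4 lower in CCR2+ve cells, and 8 and 8 in CCR1/2+ve cells. The shares of all genes were 21.9% and 25.9% in CCR2+ve cells, and 20.6% and 25.4% in CCR1/2+ve cells.

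The genes whose pattern was most like that of each Schlafen gene were sought among the 7684 genes that averaged 10 CPM or more, by the root mean square (RMS) difference of centred log2 CPM over the 19 libraries. Slfn1 was nearest to Ifi211, a PYHIN gene (RMS 0.227), Ms4a6b (0.255) and Tlr13, an RNA sensor (0.297). Slfn5 was nearest to Ifi204, also a PYHIN gene (0.251), Ccr2 (0.311) and Ctss, a lysosomal protease (0.313). The measure includes the libraries labelled inflamed CCR1, where Ifi204 averaged 1.73 CPM and Ctss 14.4 CPM. In the monocyte groups they averaged 184 to 397 CPM and 1724 to 3315 CPM. Likeness over the monocyte libraries alone was not looked at. Ccr2, which defined the sort, averaged 1218 ± 181 CPM in resting CCR2+ve, 633 ± 109 in resting CCR1/2+ve, 1251 ± 125 in inflamed CCR2+ve, 1240.5 ± 135 in inflamed CCR1/2+ve cells and 5.82 ± 2.56 CPM in the libraries labelled inflamed CCR1.

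Slfn8 was nearest to Evi2a (0.198), Ctsa, a lysosomal carboxypeptidase (0.222), and H2-M3, an MHC class Ib gene (0.233). For Slfn9 the nearest were Sp110 (0.167), Tceanc2 (0.169) and Trim12c (0.172), and for Slfn2 they were Atraid (0.161), Sept11 (0.164) and Sat1, which acetylates polyamines (0.165). Slfn4 had no close neighbour, with Lilr4b at 0.423, the nuclear RNA Neat1 at 0.454 and Ddx60, an interferon-inducible helicase, at 0.472. None of the 6 was among the 3 nearest of another. By RMS the closest pair of members was Slfn2 and Slfn9 (0.514), and Slfn8 and Slfn9 were 0.906 apart. By rank among the 7684 genes the closest pair was Slfn1 and Slfn5 (RMS 0.823). Slfn1 had rank 65 for Slfn5, and Slfn5 had rank 143 for Slfn1. Slfn9 had rank 905 for Slfn2, and Slfn2 had rank 2657 for Slfn9.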

How the data were processed

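Raw read counts per gene were deposited for bulk RNA-seq libraries of sorted mouse bone marrow cells. Reads were paired-end, and the authors ran fastp, aligned to GRCm38 with STAR 2.7.10a, kept alignments to 1 place and counted reads per gene, without normalization. Of 20 columns of counts 19 were used, and 1, which matches no sample record, was not. Testing covered 18652 genes, those averaging 1 read or more per library. For a comparison of 2 groups, edgeR 4.0.16 (R 4.3.3) was run on their libraries alone with TMM factors and a robust quasi-likelihood F test, two-sided, and p-values were adjusted by Benjamini-Hochberg across all tested genes. The interaction used 15 libraries. The SE was taken as the log2 fold change over the square root of F. The test was checked on simulated counts, and no libraries were duplicates. The members and gene lists were chosen with earlier results of these data known. Genes named are the 6 members, other Schlafen genes, up to 4 highest-level genes of each list, named interferon pathway genes, Ccr1 and Ccr2 and the 3 nearest patterns per member, while genes named for a count of 5 or fewer were chosen after their values were seen. One gene that this rule names is not reported here.

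Replicate numbers were checked on 10147 genes with a mean of at least 50 reads: deviations from the group means correlated at 0.195 to 0.444 between resting libraries of the same number and at -0.325 to 0.163 between other numbers, so the numbers pair these libraries, on this correlation alone. Alternatives were DESeq2 1.42.0, RLE factors, other filters on low counts, all libraries in one fit, a replicate block, a correction in 20 bins of GC content, alone or with the block, the study's fold cutoff, and each library left out. Exon lengths are from GENCODE M21, promoters from RefSeq.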

Additional observations from a re-analysis of the deposited data

Results flagged for a closer look

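Slfn4 in the libraries labelled inflamed CCR1 was the single group and gene with a library far from the others, among 24 groups of 4 libraries looked at, where chance would give about 1 in 20. Replicate 4 read 54.9 CPM and the other replicates 43.8 to 45.6 CPM, so its gap to the next library was 0.836 of the whole range of the group. Without it the log2 fold change of Slfn4 against inflamed CCR2+ve monocytes was -0.75 (adjusted p = 0.135), in place of -0.67 (adjusted p = 0.0949).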

How the results depend on the processing

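Of the values of single members under settings other than a left-out library, 330 kept their direction and side of the threshold, 25 passed in addition, 9 no longer passed and 8 changed sign, and with a library left out the counts were 329, 13, 6 and 12. Counts of members that passed, out of 6, were as follows, with settings not named giving the reported count. Between resting populations (3) the count was 2 with no filter on low counts, 4 with the replicate block (Slfn2 added), 5 with the GC correction and block (Slfn2 and Slfn9 added) and 1 with the fold cutoff. For inflammation in CCR2+ve cells (2) it was 4 with DESeq2 and with RLE factors, 3 with no filter, 5 with all libraries, the GC correction, and that correction with the block, 1 with the fold cutoff, and 2 to 5 with a library left out. For inflammation in CCR1/2+ve cells (5) it was 4 with no filter and with the fold cutoff, and 4 to 5 with a library left out. Between inflamed populations (0) the GC correction with the block gave 1, Slfn5. For the libraries labelled inflamed CCR1 against CCR2+ve cells (5) it was 6 with DESeq2, 4 with the fold cutoff and 5 to 6 with a library left out, and against CCR1/2+ve cells (6) it was 5 with all libraries and with the fold cutoff. For the interaction (0) DESeq2 gave 4, the replicate block 1 (Slfn2), the same with the GC correction 1 (Slfn2), and left-out libraries 0 to 2.

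Genes past the test between resting populations (3149) were 4785 with the replicate block, 4771 with the GC correction added and 792 with the fold cutoff. Between inflamed populations (35) they were 265 with DESeq2, 120 with no filter, 148 with all libraries, 222 with the block, 208 with GC correction and block, and 16 to 65 with a library left out. For the interaction (74) they were 534 with DESeq2, 113 with RLE factors, 145 with no filter, 122 with filterByExpr, 222 with the block, 216 with GC correction and block, 40 with the fold cutoff, and 0 to 253 with a library left out. The fold cutoff gave 5327 for inflammation in CCR2+ve cells, 5320 in CCR1/2+ve cells, and 5830 and 5172 for the libraries labelled inflamed CCR1 against CCR2+ve and CCR1/2+ve cells.

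Signs changed for values near 0: Slfn2 after inflammation in CCR1/2+ve cells (-0.00615 with the GC correction), Slfn8 between inflamed populations (-0.0436 with the block, -0.0358 with the GC correction, -0.112 with both, -0.0439 to 0.10 leaving out libraries), Slfn9 there (-0.00987, -0.0578, -0.0799, -0.11 to 0.12), Slfn4 at rest (-0.32 to 0.55 leaving out libraries) and Slfn4 in the interaction (-0.00336 with the GC correction, -0.21 to 0.65). The cause was not tested. By a fixed cutoff on the lowest correlation of same-numbered pairs, replicate numbers paired libraries only at rest. In the other comparisons that lowest value was -0.19 to 0.09. Same-numbered pairs were still above all others for inflamed against resting CCR1/2+ve cells (0.0882 to 0.168, others at most 0.0556). So they were for inflamed CCR1 against inflamed CCR2+ve libraries (0.0764 to 0.185, others at most 0.0633), and pairing in these comparisons is not settled. Levels by total counts moved by more than 1 SD for 4 of 30 values, RLE factors for 0. By the largest difference in place of the RMS difference, 1 of the 3 genes most like Slfn2 and 0 of those most like Slfn9 stayed.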
